A study of Mus musculus with 9 samples.

Results

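The transcripts of 9 genes of iron handling were followed at E16.5 in lenses of mouse embryos that lacked *Atf4* and of their wildtype littermates. They were *Ftl1* and *Fth1* (storage), *Ncoa4* (release from storage), *Tfrc*, *Slc11a2* and *Steap3* (uptake), *Slc40a1* (export), and *Ireb2* and *Aco1* (sensing). The members were chosen by gene symbol for these roles, and each of the 9 symbols matched 1 of the 55416 genes counted. RNA came from the single pair of lenses of each embryo, which gave 4 *Atf4* null and 5 wildtype libraries. The null embryos were homozygous for *Atf4 tm1Tow*, in which a neomycin cassette replaces exons of the gene. The allele is constitutive, so it was carried by every cell of the embryo and not by the lens alone. Both groups came from heterozygous crosses on a mixed C57Bl/6/129 background, both sexes were used, and neither group was treated.

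ATF4 is a transcription factor of the integrated stress response, through which cells adjust amino acid supply and redox balance. Cells take up iron as transferrin bound to the transferrin receptor, reduce it in the endosome, pass it to the cytosol, store it inside the ferritin shell and release it through ferroportin. The iron regulatory proteins, encoded by *Aco1* and *Ireb2*, bind a short RNA hairpin called the iron-responsive element when iron is scarce. Binding near the start of a messenger blocks its translation, as in the ferritins, and binding in the 3′UTR of the *Tfrc* messenger protects it from decay. In the human lens, mutations of this element in the L-ferritin messenger cause a hereditary cataract with high serum ferritin.

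The element joins the members through their messengers, so it was read from the canonical transcripts of GENCODE vM39 (GRCm39). The search took the sense strand only and asked for a C, 5 bases of any kind, the letters CAGTG, 1 further base, and then 5 bases that pair with the 5 after the first C. A match was found in 0.116% of 20696 annotated 5′UTRs and in 0.598% of 20721 3′UTRs of all lengths. Of the 9 members, 3 held it in the 5′UTR and *Tfrc* held 4 in its 3′UTR, while none of the other 70 iron genes listed for comparison had a match. The matches are shown with 6 bases on each side, because they are what separates the messengers with this element from the rest. They are written as DNA, with the letters CAGTG of the loop in capitals.
Ftl1 5′UTR, chr7:45109203-45109231, minus strand: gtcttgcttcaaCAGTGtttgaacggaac
Fth1 5′UTR, chr19:9960096-9960124, plus strand: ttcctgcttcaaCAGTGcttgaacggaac
Slc40a1 5′UTR, chr1:45964625-45964653, minus strand: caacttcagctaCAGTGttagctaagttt
Tfrc 3′UTR, chr16:32450037-32450065, plus strand: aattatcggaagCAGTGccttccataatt
Tfrc 3′UTR, chr16:32450416-32450444, plus strand: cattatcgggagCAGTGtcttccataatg
Tfrc 3′UTR, chr16:32450481-32450509, plus strand: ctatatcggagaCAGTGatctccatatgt
Tfrc 3′UTR, chr16:32450528-32450556, plus strand: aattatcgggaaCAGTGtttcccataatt
The canonical transcript of *Slc11a2* had no match, and its other transcripts were not searched. Counts per gene do not tell its transcripts apart. The deposited counts measure messenger levels, so effects of the element on translation were not measured.

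Between 7440807 and 8906996 counts per library lay on genes, and *Atf4* itself stood at 119 to 155 CPM (counts divided by the library total and scaled by TMM factors) in wildtype and at 0.582 to 10.6 CPM in null libraries. Wildtype replicate 5 stood apart. Its summed skeletal muscle markers were 9100 CPM against 68.3 to 149 CPM in the other 8 libraries, and its summed lens fiber markers were 31100 CPM against 53400 to 58800 CPM in the other wildtype libraries. The members' fold changes are therefore given with and without it. Of the 12 lens fiber markers, 10 were present in every library, *Lim2* had no count in any, and *Lgsn* had none in the null libraries and up to 8.1 CPM in wildtype. Libraries are whole lenses, so fewer cells of a type and less RNA per cell cannot be told apart.

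Of the 9 iron genes, *Tfrc* alone had an adjusted p below 0.05, and it was lower in *Atf4* null lenses (quasi-likelihood test of edgeR, Benjamini-Hochberg adjusted over all 14903 genes tested). Among all genes tested, 5.9% passed in either direction, 3.67% as lower and 2.23% as higher. None of the 9 passed as higher, and 0 were higher with an unadjusted p below 0.05. DESeq2 and edgeR's exactTest also called *Tfrc* and no other member. At an unadjusted p below 0.05, 3 members were lower (*Tfrc*, *Ftl1* and *Fth1*), where 10.2% of all genes tested were lower, 9.31% higher and 19.6% either at that threshold. All 9 passed the filter on low counts, and their median log2 fold change was -0.28, against 0.001 over all genes tested. Transcripts of 8 members were counted in every library of both genotypes, and *Steap3* had no count in 3 libraries.

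**Figure D1:**
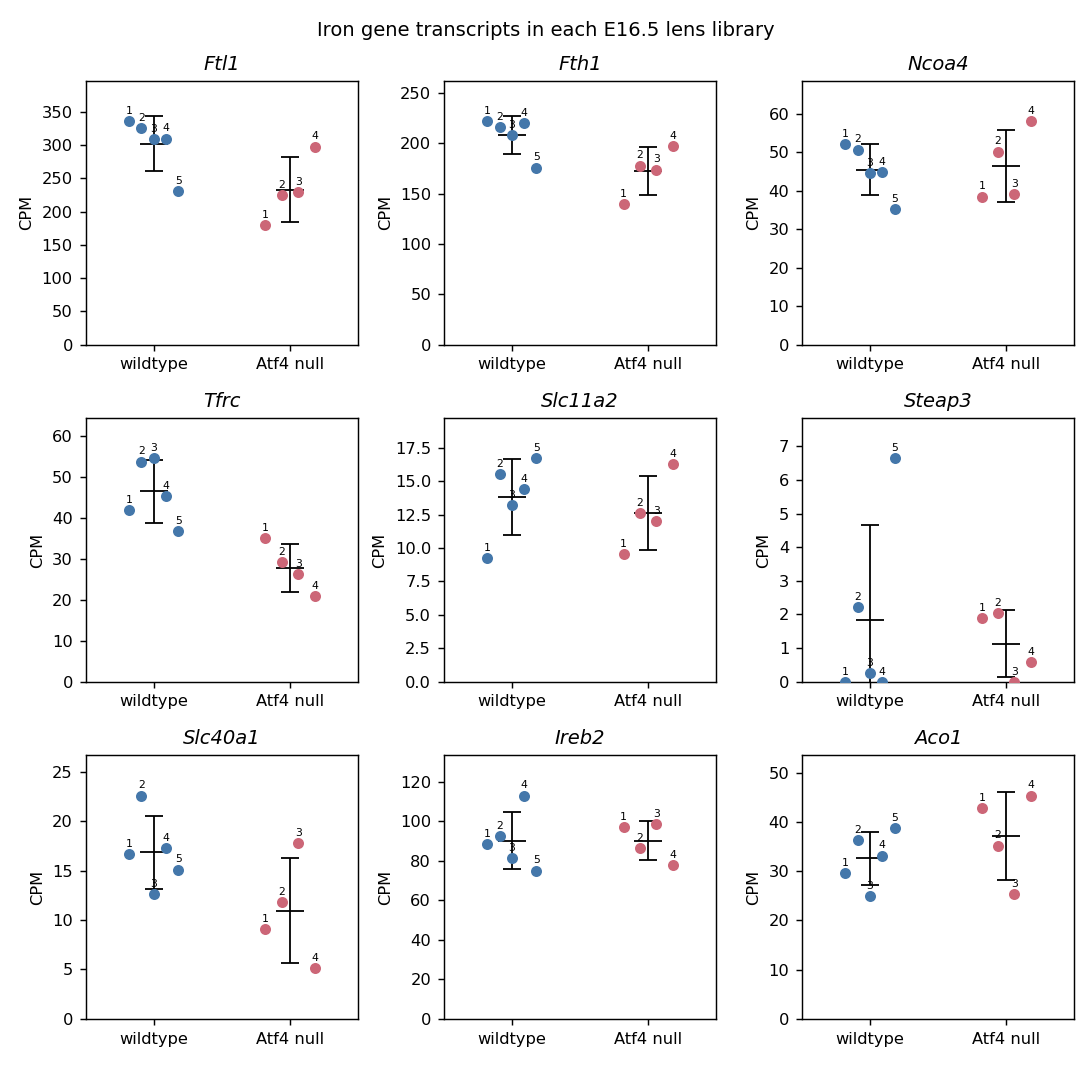
Each panel plots the CPM of a gene (vertical axis, from 0) in 5 wildtype and 4 *Atf4* null libraries, numbered by replicate, with bars for the mean and SD. The *Tfrc* values do not overlap (36.9 to 54.6 CPM in wildtype and 21 to 35.1 CPM in null), while those of the other 8 genes do.

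*Tfrc* (ENSMUSG00000022797, GRCm39 chromosome 16 from 32427556 to 32451612, plus strand) encodes the transferrin receptor, the main entry of iron into cells. Wildtype replicates 1 to 5 had 42, 53.8, 54.6, 45.4 and 36.9 CPM. *Atf4* null replicates 1 to 4 had 35.1, 29.2, 26.4 and 21 CPM. Every null library was thus below every wildtype library, although null replicate 1 and wildtype replicate 5 were close. Such a gap between the groups was seen for 10.2% of all genes tested, among them 4.65% with the null libraries higher. The mean went from 46.6 ± 7.61 CPM (SD, n = 5) to 27.9 ± 5.87 CPM (SD, n = 4), a level of 0.601 of wildtype. The log2 fold change was -0.74 (SE 0.19, 95% interval -1.14 to -0.33, edgeR adjusted p = 0.0341). The exact permutation test over libraries gave p = 0.0079 (two-sided), the smallest p it can give. The side of the threshold rested on single libraries while the direction did not. Without null replicate 2, 3 or 4 the adjusted p was 0.0759, 0.0916 or 0.0721, and without wildtype replicate 1, 2, 3 or 4 it was 0.0545, 0.0877, 0.0892 or 0.0696. Without null replicate 1 or wildtype replicate 5 it was 0.0206 or 0.0112 (log2 fold changes -0.86 and -0.81), and with libraries scaled by size alone it was 0.109 (edgeR).

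Immature red cells carry much transferrin receptor, and the paper cites earlier work in which mice without *Atf4* had severe fetal anemia. The summed level of red cell markers was also lower in the null libraries. The 12 erythroid markers present in the counts summed to 291, 336, 786, 648 and 506 CPM in wildtype replicates 1 to 5 and to 190, 259, 216 and 268 CPM in null replicates 1 to 4, so these sums did not overlap either. *Hba-a1*, an α-globin and one of the markers tested, was lower with a log2 fold change of -1.14 (edgeR adjusted p = 0.0208), at 34.1 to 59 CPM in null and 63 to 172 CPM in wildtype libraries. *Hba-a2*, *Hbb-bs*, *Hbb-bt*, *Alas2* and *Slc4a1* overlapped between the groups and did not pass, with *Alas2*, the erythroid enzyme of heme synthesis, at 25.2 to 36.2 CPM in null and 20.2 to 83 CPM in wildtype libraries. *Rhag*, *Klf1* and *Epb42* were near 0 in both genotypes, at no more than 0, 0.698 and 0.24 CPM in null and 0.38, 2.66 and 1.73 CPM in wildtype libraries. Within the wildtype group, replicate 3 was the highest in both the erythroid sum and *Tfrc*, and replicate 1 was the lowest in the sum and the second lowest in *Tfrc*, whereas replicate 2 was second lowest in the sum and second highest in *Tfrc*. Within the null group, replicate 1 had the lowest sum and the highest *Tfrc*, and replicate 4 the highest sum and the lowest *Tfrc*. Macrophage markers summed to 107 to 129 CPM in null and 97.2 to 120 CPM in wildtype, with 0 of 10 past the threshold in edgeR. Markers of some other cell types also differed between the groups. Neural retina markers summed to 279 to 662 CPM in null and 138 to 244 CPM in wildtype libraries, with 5 of 8 higher past the threshold. Of 9 genes listed for lens epithelium 6 were lower. *Foxe3* lay at 7.13 to 41.3 CPM in null and 74.9 to 160 CPM in wildtype libraries. *Cdh1* lay at 5.58 to 20.8 CPM and 130 to 204 CPM. *Pax6*, on the same list, overlapped (406 to 537 CPM in null and 360 to 578 CPM in wildtype libraries). The sum of the list, 25600 to 58100 CPM in null and 33500 to 58200 CPM in wildtype libraries, was carried by the crystallin *Cryaa*. Its levels, 23700 to 56400 CPM in null and 30200 to 53900 CPM in wildtype libraries, overlapped. Pigment cell markers summed to 43.1 to 109 CPM in null libraries, 20.2 to 42.1 CPM in wildtype replicates 1 to 4 and 141 CPM in wildtype replicate 5, and vascular endothelium markers to 166 to 371 CPM in null and 311 to 576 CPM in wildtype libraries, with no marker of either past the threshold in edgeR. Lens fiber markers summed to 23500 to 56100 CPM in null libraries, and 4 of 11 tested were lower. The library with the lowest *Tfrc*, null replicate 4, had the highest fiber sum of its genotype, at 56100 CPM. The part of these cell types in the *Tfrc* difference was not tested.

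**Figure D2:**
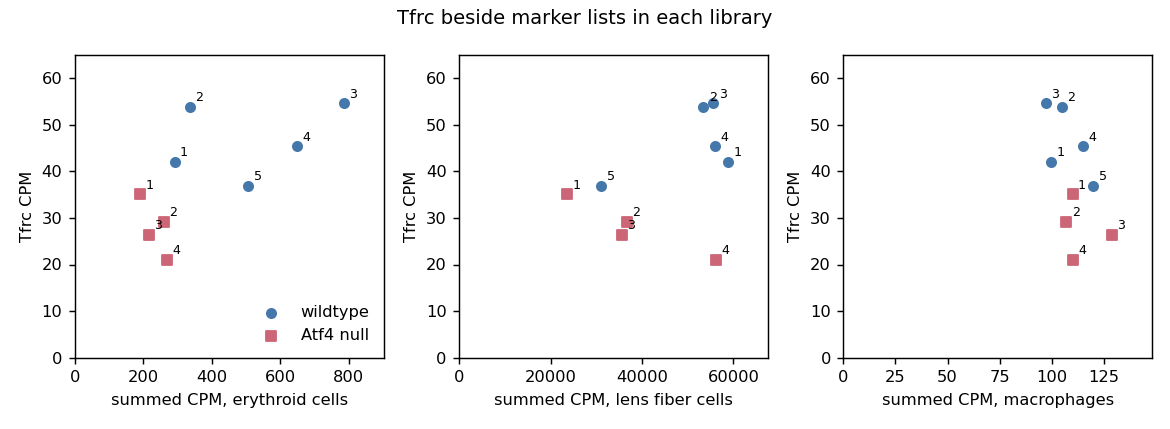
*Tfrc* CPM (vertical axis) is plotted against the summed CPM of erythroid, lens fiber and macrophage markers (horizontal axes) for each library, with circles for wildtype, squares for *Atf4* null and replicate numbers beside the points. Erythroid sums lie at 190 to 268 CPM in null and 291 to 786 CPM in wildtype, whereas macrophage sums overlap.

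The other members of uptake did not pass the test. *Slc11a2* (ENSMUSG00000023030, chromosome 15 from 100285776 to 100322953, minus strand) encodes DMT1, which carries ferrous iron out of the endosome. It stood at 9.24, 15.5, 13.2, 14.4 and 16.7 CPM in wildtype replicates 1 to 5 and at 9.57, 12.6, 12 and 16.3 CPM in null replicates 1 to 4. The groups covered nearly the same range (log2 fold change -0.14, 95% interval -0.68 to 0.40, edgeR adjusted p = 0.839; -0.05 without wildtype replicate 5). The estimate for *Tfrc* (-0.74) lay outside this interval, but its own 95% interval (-1.14 to -0.33) overlapped it. Whether the genes differed in their change was not tested. *Steap3* (ENSMUSG00000026389, chromosome 1 from 120118487 to 120200435, minus strand) encodes a ferric reductase of the endosome. Its counts were 0, 18, 2, 0 and 62 in wildtype replicates 1 to 5 and 19, 17, 0 and 4 in null replicates 1 to 4. Of the wildtype counts, most came from wildtype replicate 5, the library with muscle transcripts, and no difference was detectable over the scatter between libraries (95% interval of the log2 fold change -3.56 to 2.18). Without that library *Steap3* did not pass the filter on low counts.

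**Figure D3:**
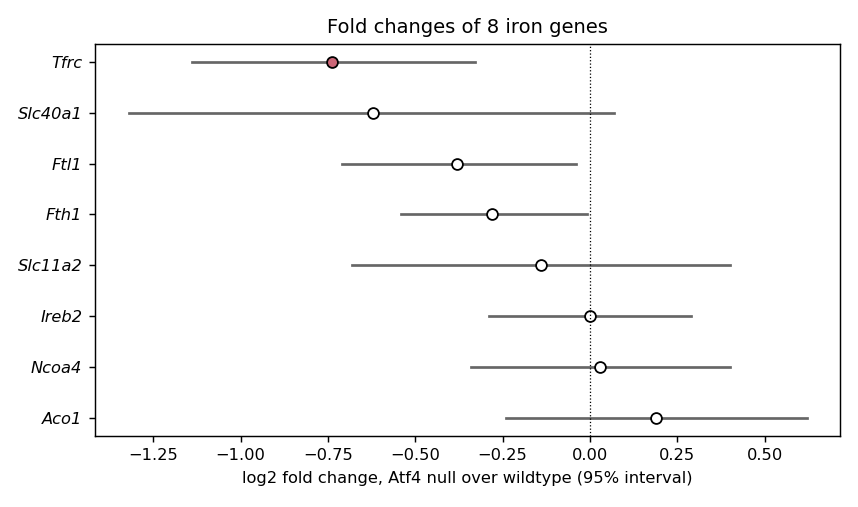
Points are log2 fold changes of *Atf4* null over wildtype from edgeR and lines their 95% intervals, for the members other than *Steap3*, and the filled point had an adjusted p below 0.05. *Tfrc* lies at -0.74, and *Ireb2* and *Ncoa4* lie at 0.00 and 0.03.

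The ferritin genes were the most abundant members. *Ftl1* (ENSMUSG00000050708, chromosome 7 from 45107367 to 45109308, minus strand) encodes the light chain, which helps to nucleate the iron core. It stood at 336, 326, 309, 310 and 231 CPM in wildtype replicates 1 to 5 and at 180, 225, 229 and 298 CPM in null replicates 1 to 4. Wildtype replicate 5 lay among the null libraries, and without it the groups did not overlap. The log2 fold change of *Ftl1* was -0.38 (SE 0.15, 95% interval -0.71 to -0.04, edgeR adjusted p = 0.189) and -0.45 without that library (adjusted p = 0.0564). *Fth1* (ENSMUSG00000024661, chromosome 19 from 9957911 to 9962462, plus strand) encodes the heavy chain, the ferroxidase. It stood at 222, 216, 208, 220 and 176 CPM in wildtype replicates 1 to 5 and at 140, 178, 174 and 197 CPM in null replicates 1 to 4. The pattern over libraries was that of *Ftl1*, with wildtype replicate 5 again inside the null range. The summed lens fiber markers stood at 23500, 36600, 35500 and 56100 CPM in null replicates 1 to 4, 31100 CPM in wildtype replicate 5 and 53400 to 58800 CPM in wildtype replicates 1 to 4. The null libraries with the lowest and the highest fiber sums, replicates 1 and 4, also had the lowest and the highest *Ftl1* and *Fth1*. The fiber sum of null replicate 4 lay within the range of wildtype replicates 1 to 4, whereas its *Ftl1* and *Fth1* levels lay below those of each of these libraries. The part of the fiber cells in the ferritin difference was not tested. The log2 fold change of *Fth1* was -0.28 (SE 0.12, 95% interval -0.54 to -0.01, edgeR adjusted p = 0.231) and -0.33 without wildtype replicate 5 (adjusted p = 0.117). Exact permutation tests on all 9 libraries gave p = 0.056 for *Ftl1* and p = 0.040 for *Fth1* (two-sided, not adjusted). Without wildtype replicate 5, 3 of the 8 members then tested (*Tfrc*, *Ftl1* and *Fth1*) did not overlap between the genotypes, as did 15.4% of all genes tested without it, and 8.33% of all genes had an adjusted p below 0.05.

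Ferritin shells are built from both chains, and the proportion of their messengers within a library does not depend on scaling. The log2 ratio of *Fth1* to *Ftl1*, per length of transcript, was -0.54, -0.53, -0.51, -0.43 and -0.33 in wildtype replicates 1 to 5 and -0.31, -0.27, -0.34 and -0.54 in null replicates 1 to 4. The light chain messenger was the more abundant in each of the 9 libraries and the groups overlapped. The log2 ratio of *Tfrc* to *Fth1* ran from -4.80 to -4.33 in wildtype and was -4.39, -5.01, -5.11 and -5.63 in null replicates 1 to 4. Of the null libraries 3 lay below the wildtype range and replicate 1 lay inside it, with a mean difference of -0.46. The log2 ratio of *Tfrc* to *Ftl1* ran from -5.34 to -4.84 in wildtype. It was -4.70, -5.28, -5.45 and -6.16 in null replicates 1 to 4, with a mean difference of -0.36. Only null replicates 3 and 4 lay below the wildtype range of this ratio. Both ferritin genes have near-identical copies elsewhere in the genome, and reads with more than 1 alignment were not counted. Of the light chain copies, *Ftl2-ps* took 89 to 203 counts per library and *Ftl1-ps1* 41 to 75, and of the heavy chain copies *Fth-ps2* took 4 to 36, whereas the 6 *Fthl17* genes had no counts. The ferritin levels therefore rest on reads that differ from these copies and may be underestimates in both genotypes.

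*Ncoa4* (ENSMUSG00000056234, chromosome 14 from 31881822 to 31902234, plus strand) encodes the receptor that brings ferritin to the autophagosome, where its iron is freed. It stood at 52.1, 50.7, 44.6, 44.9 and 35.3 CPM in wildtype replicates 1 to 5 and at 38.5, 50.2, 39.1 and 58.1 CPM in null replicates 1 to 4. The ranges overlapped, with null replicate 4 the highest of the 9 libraries and wildtype replicate 5 the lowest (log2 fold change 0.03, 95% interval -0.34 to 0.40, edgeR adjusted p = 0.958; -0.05 without wildtype replicate 5).

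*Slc40a1* (ENSMUSG00000025993, chromosome 1 from 45947211 to 45965683, minus strand) encodes ferroportin, the only known exporter of iron from cells. It stood at 16.7, 22.6, 12.6, 17.3 and 15.1 CPM in wildtype replicates 1 to 5 and at 9.07, 11.8, 17.8 and 5.1 CPM in null replicates 1 to 4. Of the null libraries 3 were below every wildtype library and null replicate 3 was the second highest of the 9. The log2 fold change was -0.62 (SE 0.32, 95% interval -1.32 to 0.07, edgeR adjusted p = 0.316, exact permutation p = 0.079, two-sided). It was -0.66 without wildtype replicate 5, ran from -0.96 without null replicate 3 to -0.39 without null replicate 4 and passed the threshold in none of 16 alternatives (adjusted p 0.135 to 0.515). The log2 ratio of *Tfrc* to *Slc40a1*, entry against exit, was 0.83, 0.75, 1.62, 0.89 and 0.79 in wildtype replicates 1 to 5 and 1.45, 0.81, 0.07 and 1.54 in null replicates 1 to 4. The means were 0.98 ± 0.36 (SD, n = 5) and 0.97 ± 0.68 (SD, n = 4), and the null libraries were the more scattered.

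The iron sensors did not pass the test. *Ireb2* (ENSMUSG00000032293, chromosome 9 from 54770970 to 54820011, plus strand) encodes IRP2. It stood at 88.6, 92.6, 81.2, 113 and 75 CPM in wildtype replicates 1 to 5 and at 97.2, 86.4, 98.7 and 77.7 CPM in null replicates 1 to 4. The means were 90.0 ± 14.4 CPM (SD, n = 5) and 90.0 ± 9.84 CPM (SD, n = 4), with a 95% interval of the log2 fold change of -0.29 to 0.29 (edgeR adjusted p = 0.998; log2 fold change -0.05 without wildtype replicate 5). *Aco1* (ENSMUSG00000028405, chromosome 4 from 40142998 to 40199010, plus strand) encodes IRP1, which serves as a cytosolic aconitase when it holds an iron-sulfur cluster. It stood at 29.7, 36.3, 25, 33.2 and 38.8 CPM in wildtype replicates 1 to 5 and at 42.8, 35.2, 25.3 and 45.4 CPM in null replicates 1 to 4. The highest levels were those of null replicates 1 and 4, but the groups overlapped (log2 fold change 0.19, 95% interval -0.24 to 0.62, edgeR adjusted p = 0.679; 0.26 without wildtype replicate 5). IRP2 is controlled mainly by degradation of the protein and IRP1 by its cluster, neither of which is read by messenger counts.

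Per length of the canonical transcript, the ferritin genes were far above the other members. In wildtype, *Ftl1* stood at 312 ± 43.1 FPKM and *Fth1* at 224 ± 20.4 FPKM (SD, n = 5), followed by *Ireb2* at 15.3 ± 2.45 FPKM, *Ncoa4* at 10.2 ± 1.48 FPKM and *Tfrc* at 9.51 ± 1.56 FPKM. Below these were *Aco1* at 7.10 ± 1.19 FPKM, *Slc40a1* at 4.87 ± 1.06 FPKM, *Slc11a2* at 4.57 ± 0.949 FPKM and *Steap3* at 0.322 ± 0.503 FPKM. *Ftl1* and *Fth1*, *Ncoa4* and *Tfrc*, *Tfrc* and *Aco1*, *Aco1* and *Slc40a1*, and *Slc40a1* and *Slc11a2* overlapped between libraries, whereas the lowest library of *Ireb2* (12.8 FPKM) was above the highest of *Ncoa4* (11.6 FPKM). In *Atf4* null lenses the mean of *Tfrc* was 5.70 ± 1.2 FPKM (SD, n = 4), below that of *Aco1* at 8.10 ± 1.97 FPKM, while *Ftl1* (240 ± 49.9 FPKM) and *Fth1* (185 ± 25.5 FPKM) were still the most abundant. These levels depend on the length used. With the summed exons of each gene the wildtype mean of *Fth1* was 59.2 FPKM, and *Tfrc* (6.59 FPKM) stood above *Ncoa4* (4.54 FPKM).

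**Figure D4:**
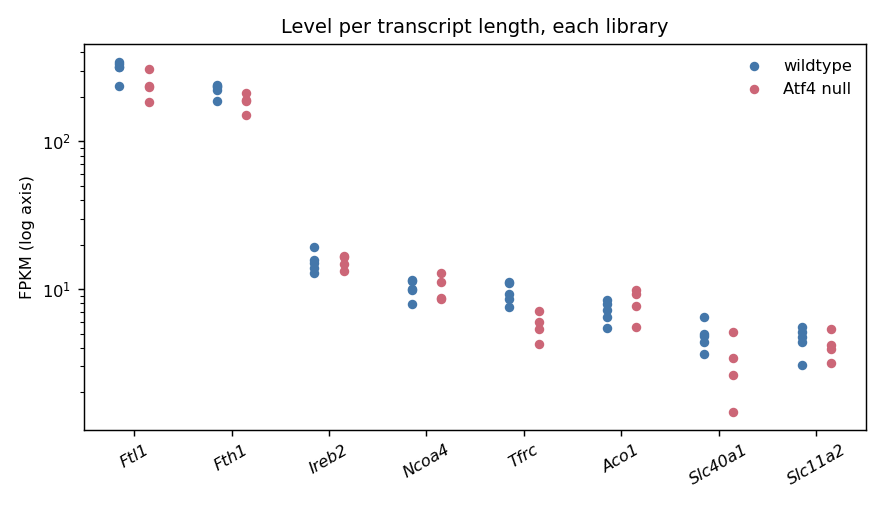
FPKM per canonical transcript length on a log axis is plotted for each library, wildtype on the left and *Atf4* null on the right of each gene, and *Steap3*, with zero counts in 3 libraries, is left out. The ferritin genes lie between 150 and 347 FPKM in all 9 libraries and the others at or below 19.2 FPKM.

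A list of 70 other genes of iron and heme handling was examined beside the members, and 59 of them passed the filter on low counts. Of these 59, 2 had an adjusted p below 0.05, *Hmox1* and *Cp*, both lower in *Atf4* null lenses, and 0 were higher (edgeR). At an unadjusted p below 0.05, 8 were higher and 6 lower, or 14 of 59 where 19.6% of all genes tested lay below that threshold, and DESeq2 and exactTest called the same 2 genes. The share of 2 in 59 lies under the 5.9% of all genes tested, and the median log2 fold change of the list was -0.09. With libraries scaled by size alone, which moves the median of all genes from 0.001 to 0.125, *Glrx3*, *Picalm* and *Vps35* also passed, as higher.

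*Hmox1* (ENSMUSG00000005413, chromosome 8 from 75820241 to 75827217, plus strand) encodes heme oxygenase 1, which breaks down heme and frees its iron. It stood at 65.1, 62.1, 75.2, 55.7 and 47.9 CPM in wildtype replicates 1 to 5 and at 6.28, 12.2, 21.9 and 14 CPM in null replicates 1 to 4. The highest null library was well below the lowest wildtype library, and the gap exceeded that of *Tfrc*. The mean fell from 61.2 ± 10.3 CPM (SD, n = 5) to 13.6 ± 6.46 CPM (SD, n = 4), 4.5-fold (log2 fold change -2.17, SE 0.29, edgeR adjusted p = 0.00069), and the adjusted p was 0.006 or lower in each of 16 alternatives. *Hmox2*, the constitutive heme oxygenase, stood at 22.2 ± 4.1 CPM (SD, n = 5) and 23.5 ± 6.4 CPM (SD, n = 4), with a log2 fold change of 0.08 (95% interval -0.39 to 0.56, edgeR adjusted p = 0.894).

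*Cp* (ENSMUSG00000003617, chromosome 3 from 20011090 to 20063930, plus strand) encodes ceruloplasmin, a copper ferroxidase that oxidizes the iron leaving through ferroportin. It stood at 203, 232, 261, 220 and 142 CPM in wildtype replicates 1 to 5 and at 125, 133, 117 and 97.7 CPM in null replicates 1 to 4. The groups did not overlap, and wildtype replicate 5 was the nearest to the null libraries. *Cp* fell 1.79-fold (log2 fold change -0.84, SE 0.16, edgeR adjusted p = 0.00825) and passed in each of 16 alternatives. *Heph*, the membrane ferroxidase related to it, stood at 28.6 ± 3.44 CPM (SD, n = 5) and 36.7 ± 6.18 CPM (SD, n = 4) and did not pass (log2 fold change 0.36, edgeR adjusted p = 0.268). *Trf*, which encodes transferrin, the ligand of the *Tfrc* product, had 27.6, 32.8, 38.8, 28 and 27.4 CPM in wildtype replicates 1 to 5 and 21.8, 22.4, 21.1 and 22.1 CPM in null replicates 1 to 4. These values did not overlap, but its adjusted p was 0.118 (log2 fold change -0.50, edgeR). Of the same function, *Slc39a14*, an iron and zinc importer, and *Picalm*, a clathrin adaptor, did not overlap either but were the higher in null lenses. Of the 59 genes tested, 6 did not overlap, a share like the 10.2% of all genes tested. *Slc39a14* lay at 22.1 to 24.3 CPM in null and 8.48 to 20.4 CPM in wildtype libraries (log2 fold change 0.57, edgeR adjusted p = 0.2), and *Picalm* at 150.5 to 203.5 CPM and 126.1 to 142.6 CPM (0.33, edgeR adjusted p = 0.117). *Hmox2*, *Heph*, *Trf*, *Slc39a14* and *Picalm* were named after their values had been seen.

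**Figure D5:**
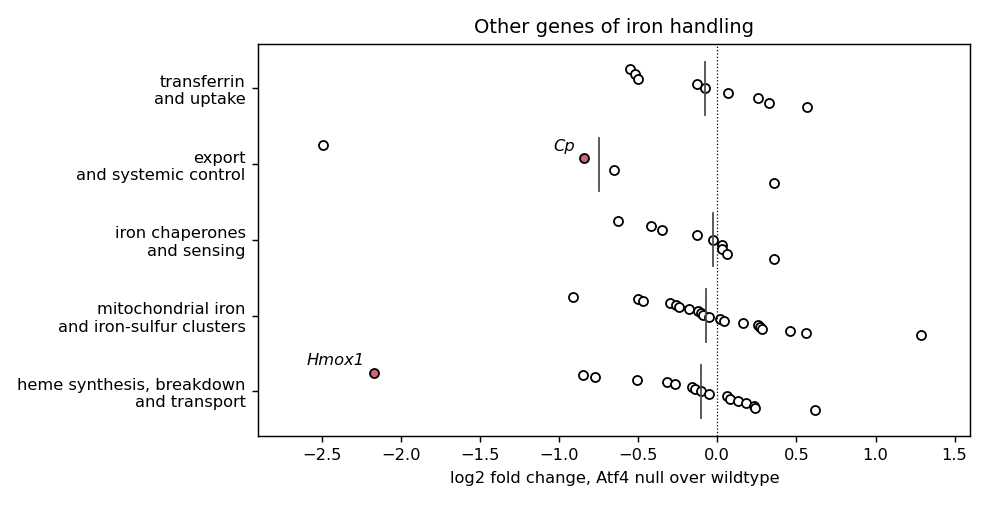
Each point is the log2 fold change (*Atf4* null over wildtype, horizontal axis) of a gene of the comparison list that was tested, in rows by function, with a vertical bar at the median of each row. The filled points, *Hmox1* at -2.17 and *Cp* at -0.84, had an adjusted p below 0.05 in edgeR.

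By function, 0 of the 9 genes tested of transferrin and uptake passed (median log2 fold change -0.08), 1 of 4 of export and systemic control (*Cp*; median -0.74), 0 of 9 of iron chaperones and sensing (median -0.03), 0 of 20 of mitochondrial iron and iron-sulfur clusters (median -0.07), and 1 of 17 of heme synthesis, breakdown and transport (*Hmox1*; median -0.10). The 6 most abundant genes of the list per length, over all libraries, were *Cp* (above), *Hspa9*, a mitochondrial chaperone of cluster transfer (log2 fold change 0.27, adjusted p = 0.388), *Pcbp1* and *Pcbp2*, which deliver iron to ferritin (0.06 and 0.03, adjusted p = 0.855 and 0.923), *Skp1*, part of the ligase that degrades IRP2 (-0.13, adjusted p = 0.565), and *Snx3*, which recycles the transferrin receptor (-0.08, adjusted p = 0.814, all from edgeR). The hormone gene *Hamp* had at most 3 counts in a library.

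The RefSeq promoter table (GRCm38.p6, 250 bases before to 50 after the start) held 7 of the 9 members and 50 of the 70 other genes. The ATF4 element, searched as TGATGCAA on both strands, was in 0 of these 7 and 0 of these 50, against 0.895% of 32851 promoters. The members *Slc11a2* and *Slc40a1* had no promoter in the table and were not searched. Of the other genes named above, *Hmox1*, *Trf*, *Heph*, *Slc39a14* and *Hspa9* were likewise not searched. No match says only that these letters are not in these windows.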

How the data were processed

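Lens RNA of 9 E16.5 embryos was sequenced from SMARTer Stranded Pico libraries. The authors trimmed reads with Trim Galore, took out ribosomal reads with HISAT2, and assigned what remained to genes of Ensembl release 104 (GRCm39) with HTSeq; the aligner of the genome step is not given in the sources used here. The deposited values are raw counts per gene with 5 summary entries, which held 44.56% to 47.72% of the reads and were left out. The strand setting of the counting is not given in the sources used here. Symbols and positions came from GENCODE vM39 (54749 of 55416 identifiers matched).

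Genotypes were compared with edgeR 4.0.16 in R 4.3.3 (filterByExpr, TMM factors, glmQLFit and glmQLFTest, no covariate, Benjamini-Hochberg adjustment over 14903 genes, threshold 0.05). Intervals are the log2 fold change with its standard error and the t quantile of the fit. CPM are TMM-scaled, and FPKM divide them by the canonical transcript length. Exact permutation tests used log2 CPM with a prior count of 2. The alternatives were exactTest, DESeq2 1.42.0, library size scaling, other filters, a robust fit, the replicate number as a block, and each library left out. On simulated data for this comparison with 14903 genes, the procedure recovered 30% of 100 genes changed by 1 log2 unit and 72% of 100 changed by 2.

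The members and lists were chosen with earlier results of these data known. Genes named were the members, listed genes with an adjusted p below 0.05, the 6 listed genes highest per length, *Atf4* and ferritin copies, with exceptions stated. The replicates are separate embryos. For wildtype samples the library named in the title differs from the one named with the counts, which leaves their replicate numbers open to doubt but not their genotype. Chi-square per degree of freedom was at least 7.93 over 36 pairs of libraries, so no library repeats another. The result of 1 erythroid marker is not reported here.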

Additional observations from a re-analysis of the deposited data

Results flagged for a closer look

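Among 48 groups of values examined, 4 held a library far from the others, where chance gives about 1 in 20. *Fth1*, *Ftl1* and *Hspa9* stood at 176, 231 and 245 CPM in wildtype replicate 5, against 208 to 222, 309 to 336 and 322 to 351 CPM in wildtype replicates 1 to 4. The same library carries the skeletal muscle and mesenchyme transcripts. The log2 ratio of *Tfrc* to *Slc40a1* was 1.62 in wildtype replicate 3, against 0.75 to 0.89 in the other wildtype libraries, and that library had both the highest *Tfrc* and the lowest *Slc40a1* of its genotype.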

How the results depend on the processing

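The direction of *Tfrc*, *Fth1*, *Ftl1*, *Slc40a1*, *Hmox1* and *Cp* was the same in each of 16 alternatives. The number of genes past the threshold was 880 in the main comparison, 1397 with DESeq2, and 527 (without *Atf4* null replicate 2) to 1207 (without wildtype replicate 5) with a library left out. The number of members past it went from 1 to 0 with library size scaling and lay between 0 and 1 with a library left out. That of the other iron genes went from 2 to 5 with library size scaling, under which 64.3% of all calls were higher in null lenses against 37.8%, and lay between 2 and 3 with a library left out. Genes near a log2 fold change of 0 changed sign. *Ireb2* was at 0.00 with no filter or with at least 10 counts in every library and at -0.05 to 0.09 with a library left out. *Ncoa4* ran from -0.10 to 0.11 and *Pcbp2* from -0.05 to 0.09 in the same way, and *Snx3* was at 0.03 with library size scaling. The causes were not tested. Samples with the same replicate number did not deviate together (correlations of -0.131, -0.019, -0.023 and 0.008). This cannot decide whether samples shared a litter or batch, because the wildtype replicate numbers are open to doubt. With the replicate block, 852 genes, 1 member and 2 other iron genes passed, *Steap3* was at 1.39, *Ireb2* at -0.05, *Ncoa4* at -0.07 and *Pcbp2* at -0.01. *Steap3* had 0 to 62 counts per library, with a wide scatter within both groups.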
